A study of Mus musculus with 12 samples.

Results

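The genes described here are the 8 MHC class II genes Cd74, H2-Aa, H2-Ab1, H2-Eb1, H2-DMa, H2-DMb1, H2-DMb2 and Ciita, taken by symbol from a table of 47729 genes. They were selected because the level of Cd74 differed widely among these same libraries, from 77.8 to 1397 CPM (counts scaled to the depth of each library, with TMM factors). Their levels and changes in these libraries are therefore given as a description, with no test of a member. Tests are given for other genes only.

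RNA was sequenced from Lgr5-EGFP high intestinal stem cells (ISCs), sorted from crypts of the small intestine. The donors were Lgr5-EGFP-IRES-creERT2 mice, which carry a green fluorescent reporter and a tamoxifen-inducible Cre in the Lgr5 locus on a C57BL/6 background. The mice of the study were 8 to 10 weeks old and of both sexes, with the sex per library not given. There were 12 libraries, 3 in each of 4 groups. Stress mice were held once in a tube for 3 h, and Ctrl mice went without food and water over the same time. CORT mice received 1 intraperitoneal injection of corticosterone, the main glucocorticoid of rodents, at 5 mg/kg, and vehicle mice received the cyclodextrin solution alone. Libraries are named by group and the number in their label. The stress libraries 1+2 and 4+5+6 carry joined numbers, read here as pools of mice, whereas stress 3 carries 1 number. The sort kept live cells positive for EpCAM and high for EGFP, and removed cells with CD45, CD31, TER119 or CD24 on their surface.

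MHC class II molecules present peptides from the endosome to CD4+ T cells. H2-Aa and H2-Ab1 encode the α and β chains of I-A. H2-Eb1 encodes the β chain of I-E, which is not formed in the C57BL/6 haplotype because its α chain gene is not functional. Cd74, the invariant chain, escorts new class II molecules to the endosome. H2-DM, made of H2-DMa with H2-DMb1 or H2-DMb2, exchanges the peptides there. Ciita is the co-activator that sets class II transcription. It binds no DNA itself and is recruited by the factors RFX, CREB and NF-Y, which sit on the X and Y boxes of class II promoters. Interferon gamma induces Ciita, and gut epithelium, Lgr5+ stem cells included, is known to make class II molecules.

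In the mm10 coordinates of the deposited tables, 6 of the 8 genes lay within 181 kb of chromosome 17. In order these were H2-DMa (34135182 to 34139101, plus strand), H2-DMb2 (34143307 to 34151553, plus), H2-DMb1 (34153072 to 34160230, plus), H2-Ab1 (34263209 to 34269418, plus), H2-Aa (34282744 to 34287827, minus) and H2-Eb1 (34305877 to 34316199, plus). H2-DMb1 and H2-DMb2 are near copies. Their longest protein-coding transcripts were identical at 94.6% of aligned bases, and 25.2% of all windows of 50 bases in H2-DMb2 occurred unchanged in H2-DMb1. Their counts are therefore uncertain where the counting could split reads between them.

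RefSeq promoter windows (build GRCm38.p6, 250 bases before to 50 after a start) were at hand for 5 of the 8 genes, in 6 windows, namely H2-Aa, H2-Eb1, H2-DMa, H2-DMb1 and H2-DMb2. The motifs searched on both strands were the Y box core ATTGG and the X box core AGNNACNNA, and the pair of both on 1 strand with the Y core starting 28 to 42 bases after the X core. The stretches below show how the Y box, and in H2-Eb1 the X box, sit before the RefSeq start. For H2-DMb2, H2-DMb1 and H2-DMa this start lies apart from that of the deposited tables. The H2-DMb2 stretch lies inside the span given above for that gene. So does the H2-DMb1 stretch (34153080 to 34153144), which is not printed because it overlaps an annotated untranslated region. The windows of H2-DMa lie before the span of that gene and not next to it. The Y box core and the X box core of a matched pair are in capitals, and the sequences read 5′ to 3′ on the strand of the gene.
H2-Eb1, chr17:34305758-34305822, plus strand: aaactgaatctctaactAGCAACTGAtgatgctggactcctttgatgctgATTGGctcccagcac
H2-Aa, chr17:34287857-34287921, minus strand: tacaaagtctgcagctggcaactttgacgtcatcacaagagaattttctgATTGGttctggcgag
H2-DMb2, chr17:34145109-34145173, plus strand: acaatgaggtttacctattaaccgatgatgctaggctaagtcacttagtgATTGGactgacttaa

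The Y core was found in windows of all 5 genes and in 37.4% of all 32851 promoter windows. Its distance before the RefSeq start was 48 bases in H2-Aa, 59 in H2-Eb1, 61 in H2-DMb1, 90 in H2-DMb2 and 198 in the window of H2-DMa that held it. The X core alone occurred in windows of 3 of the 5 genes and in 46.2% of all windows. The pair was found in H2-Eb1 and H2-DMb1, 33 and 34 bases apart, against 0.679% of all windows. In H2-DMb1 both cores lie inside the deposited span of the gene. A spaced palindrome of glucocorticoid receptor sites, ACANNNTGT, was in none of the 6 windows and in 6.85% of all. A match is a description of letters, and its absence says only that those letters were not in these windows.

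The 2 members outside this cluster were Cd74 on chromosome 18 (60803848 to 60812646, plus) and Ciita on chromosome 16 (10488178 to 10527564, plus). In the GENCODE vM21 annotation, the exons of Ciita shared 3.96% of their bases with Dexi, a gene on the opposite strand, and reads from the shared bases cannot be assigned without strand.

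Per transcript length, as FPKM (fragments per kilobase of transcript scaled to depth), the members kept nearly the same order in every library. The median FPKM over the 12 libraries was 291 for Cd74, 103 for H2-Ab1, 82.9 for H2-Eb1, 44.6 for H2-Aa, 18.8 for H2-DMa, 13.3 for H2-DMb1 and 3.91 for Ciita. H2-DMb2 had a median of 0.133 FPKM. Cd74 stood above H2-Ab1, H2-Ab1 above H2-Eb1 and H2-Eb1 above H2-Aa in 12 of 12 libraries. H2-Aa exceeded H2-DMa in 11 libraries, the exception being CORT 4, and H2-DMa exceeded H2-DMb1 in 11 libraries, the exception being Ctrl 1. The other class II loci were close to nothing, with H2-Ob at 0 counts in all 12 libraries and H2-Oa, H2-Eb2 and the pseudogene H2-Ea-ps never above 0.234 CPM.

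The level of class II transcripts differed widely within groups. Cd74, the invariant chain, measured 758 CPM in Ctrl 1, 932 in Ctrl 2 and 293 in Ctrl 3. In the stress group it measured 336 in stress 1+2, 1397 in stress 3 and 424 in stress 4+5+6. The vehicle libraries 3, 5 and 6 gave 375, 644 and 480, and the CORT libraries 2, 4 and 5 gave 370, 77.8 and 258. Stress 3 was thus the highest library and CORT 4 the lowest, 17.9-fold apart, and the Ctrl and stress groups overlapped. The CORT libraries lay below the vehicle libraries, by a margin as small as 370 against 375 CPM.

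**Figure D1:**
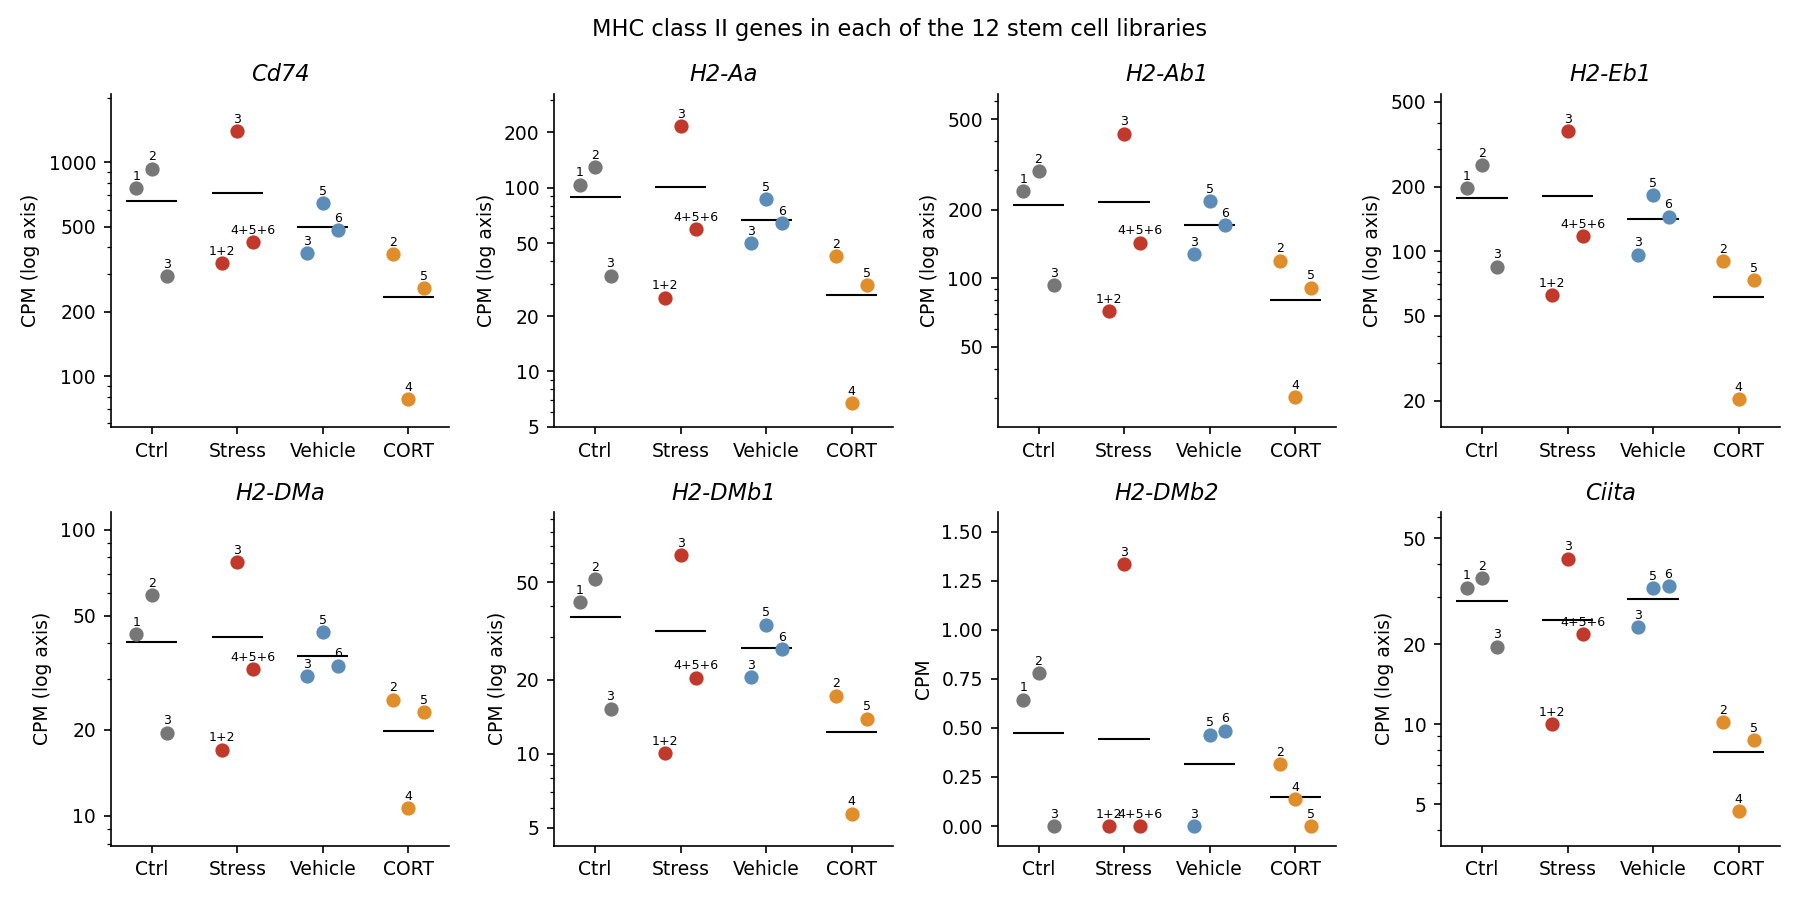
Level of each of the 8 class II genes (CPM, log axis except for H2-DMb2) in the 12 libraries, 3 per group, with the library number above each point and the group mean as a bar. Stress 3 is the highest point in all 8 panels, and CORT 4 is the lowest in 7 of them.

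The chains of I-A followed nearly the same order, though stress 1+2 stood above Ctrl 3 and CORT 5 for Cd74 and below both for H2-Ab1 and H2-Aa. H2-Ab1 measured 242, 295 and 93.2 CPM in Ctrl 1, 2 and 3, and 72.0, 432 and 143 CPM in stress 1+2, 3 and 4+5+6. It measured 127, 218 and 171 CPM in vehicle 3, 5 and 6, and 120, 30.02 and 90.9 CPM in CORT 2, 4 and 5. As for Cd74, Ctrl and stress overlapped and each CORT library lay below each vehicle library. H2-Aa, the α chain, spread the most, from 6.70 CPM in CORT 4 to 217 CPM in stress 3, which is 32.4-fold. Its 3 Ctrl libraries gave 104, 129 and 33.2 CPM, the stress libraries 25.2, 217 and 59.3, the vehicle libraries 49.9, 86.4 and 64.0, and the CORT libraries 42.3, 6.70 and 29.5. H2-Eb1, transcribed although I-E is not assembled in this strain, ranged from 20.3 CPM in CORT 4 to 365 CPM in stress 3, 17.98-fold apart.

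The peptide exchange genes varied less. H2-DMa ranged from 10.6 CPM in CORT 4 to 76.8 CPM in stress 3, a 7.23-fold span, and H2-DMb1 from 5.71 to 64.2 CPM in the same libraries, 11.3-fold. H2-DMb2 had 0 counts in 5 libraries and at most 22 counts in any. A count of 0 allows up to 12 counts, which is 3 read pairs and between 0.179 and 0.746 CPM depending on the library, so its level lay at or near the limit of detection at this depth.

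Ciita, which directs the others, measured 32.6, 35.3 and 19.6 CPM in Ctrl 1, 2 and 3, and 10.01, 41.9 and 21.8 CPM in stress 1+2, 3 and 4+5+6. In vehicle 3, 5 and 6 it measured 23.1, 32.5 and 33.1 CPM, and in CORT 2, 4 and 5 it measured 10.2, 4.71 and 8.67 CPM. The CORT group and the vehicle group did not overlap, and the lowest vehicle library was over 2-fold above the highest CORT library. Stress 1+2 lay within the CORT range.

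The members moved together from library to library. Pairwise Pearson r of log2(CPM + 1) over the 12 libraries ran from 0.956 to 0.998 among the 15 pairs of Cd74, H2-Aa, H2-Ab1, H2-Eb1, H2-DMa and H2-DMb1. With Ciita, these 6 genes had r between 0.888 and 0.925. The points share libraries and scaling, and the values are a description with no p. The pooled within-group SD of log2(CPM + 1) was 0.94 for Cd74, 1.15 for H2-Aa, 0.96 for H2-Ab1, 0.98 for H2-Eb1, 0.75 for H2-DMa, 0.89 for H2-DMb1 and 0.61 for Ciita. The median over the 12814 genes with a mean of at least 1 CPM was 0.17. Of those genes, 97.9% had a smaller SD than Ciita and 99.7% a smaller SD than H2-Aa, with the other 5 members between. The width of this spread is what the genes were selected on.

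The ratio between members was steadier than their level, with exceptions. The CPM ratio of Cd74 to H2-Ab1 was 3.13 to 3.16 in the Ctrl libraries and 2.81 to 2.95 in the vehicle libraries. It was 4.67 in stress 1+2, the highest of the 12, and 2.59 in CORT 4, the lowest. The ratio of H2-Aa to H2-Ab1 followed the level, at 0.503 in stress 3 and 0.223 in CORT 4. These are ratios of CPM and are not per length, so they compare libraries and not genes.

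Dendritic cells, macrophages and B cells carry much class II, and these and other leukocytes were looked for with 47 defining markers. Of these, 15 were at 0 counts in all 12 libraries, among them Cd53, Flt3, Xcr1, Clec9a, Batf3, Siglech, Adgre1, Csf1r, Pax5, Cd3d and Nkg7. Ptprc, which encodes CD45, was at 0 in 11 libraries and at 1.10 CPM in stress 4+5+6. A further 28 markers, Ptprc included, never passed 2 CPM, and the 43 together summed to between 2.09 and 8.89 CPM. These 43 were set apart by their low level in these same libraries, so that their low sum followed from the choice. The 8 class II genes summed to between 156 CPM in CORT 4 and 2596 CPM in stress 3. The remaining 4 markers were Lcp1 (66.3 to 112 CPM), Cd14 (8.92 to 41.0 CPM), Mertk (12.9 to 25.3 CPM) and Itgam (1.96 to 6.61 CPM). Together these 4 summed to between 93.7 CPM in CORT 4 and 157 CPM in Ctrl 1. The 6 ISC markers summed to between 10678 and 13938 CPM, most of it from Olfm4 at 6884 to 10350 CPM. Of the others, Lgr5 was at 128 to 248 CPM and Ascl2 at 53.8 to 171 CPM.

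**Figure D2:**
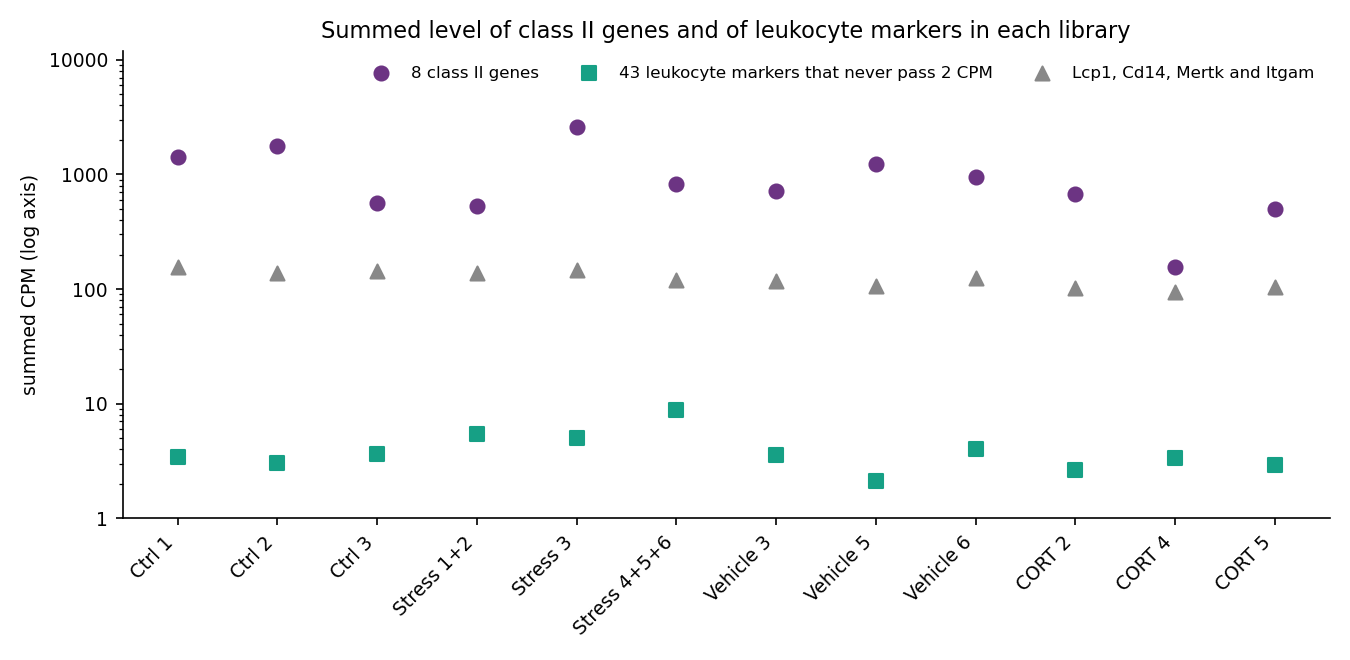
Summed CPM (log axis) of the 8 class II genes, of 43 leukocyte markers that never passed 2 CPM and of the other 4 leukocyte markers, in each library. The class II sum spans 156 to 2596 CPM, the 43 markers 2.09 to 8.89 CPM and the other 4 markers 93.7 to 157 CPM.

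The first comparison asks how restraint changed gene expression in ISCs. Genes were called at an adjusted p under 0.05 by the quasi-likelihood test of edgeR with more than a 2-fold change. Of 13722 genes tested, 103 were called (0.751%). The log2 fold change of stress over Ctrl was 0.12 ± 0.52 (SE, n = 3 libraries per group) for Cd74, 0.18 ± 0.66 for H2-Aa, 0.04 ± 0.56 for H2-Ab1 and 0.03 ± 0.55 for H2-Eb1. It was 0.05 ± 0.49 for H2-DMa, -0.19 ± 0.58 for H2-DMb1, -0.10 ± 1.42 for H2-DMb2 and -0.25 ± 0.41 for Ciita. Each difference was smaller than its SE, so that neither its direction nor its size was resolved. The members' median log2 fold change was 0.03 and that of all genes tested 0.00.

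These values depended on single stress libraries, in both directions. Without stress 3, the log2 fold change was -0.80 for Cd74, -1.07 for H2-Aa, -0.96 for H2-Ab1, -0.98 for H2-Eb1, -0.71 for H2-DMa, -1.23 for H2-DMb1 and -0.87 for Ciita. Without stress 1+2, it was 0.46 for Cd74, 0.64 for H2-Aa, 0.45 for H2-Ab1 and 0.44 for H2-Eb1. For H2-DMa, H2-DMb1 and Ciita it was then 0.43, 0.23 and 0.13. Enterocyte markers moved with the stress group. Their sum was 830 CPM in stress 1+2, 322 CPM in stress 3 and 1685 CPM in stress 4+5+6, against 179 to 202 CPM in Ctrl. Stress 3 was thus the lowest of the stress libraries for enterocyte markers and the highest for class II. The other libraries did not keep this inverse order. Stress 4+5+6, the highest for enterocyte markers, had a class II sum of 819 CPM against 533 CPM in stress 1+2. In Ctrl the class II sum ran from 559 to 1755 CPM. Markers of T cells and intraepithelial lymphocytes summed to between 1.40 and 3.75 CPM in stress and between 0 and 0.427 CPM in Ctrl. No gene of this list passed 1.67 CPM or 29 counts in any library, so these sums lay near the limit of detection. The part of enterocyte and lymphocyte markers in the class II levels was not tested. Fewer cells of a type and less RNA per cell cannot be told apart in bulk libraries.

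**Figure D3:**
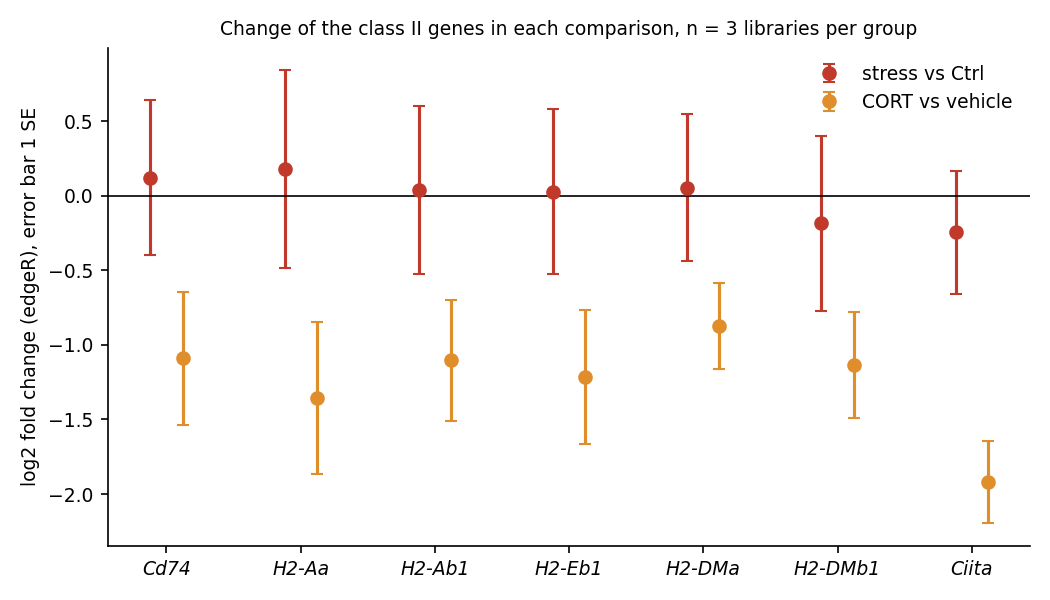
Log2 fold change (edgeR) of 7 class II genes for stress over Ctrl and CORT over vehicle, with error bars of 1 SE and 3 libraries per group. The stress values lie between -0.25 and 0.18 with bars that cross 0, and the CORT values lie between -1.92 and -0.87.

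The second comparison asks the same for corticosterone. All 7 members that passed the filter on low counts were lower in CORT than in vehicle (H2-DMb2 was filtered out). The log2 fold change was -1.09 ± 0.45 (SE, n = 3 per group) for Cd74, -1.35 ± 0.51 for H2-Aa, -1.10 ± 0.41 for H2-Ab1 and -1.22 ± 0.45 for H2-Eb1. It was -0.87 ± 0.29 for H2-DMa, -1.14 ± 0.35 for H2-DMb1 and -1.92 ± 0.27 for Ciita. As group means, Cd74 measured 235 ± 148 CPM in CORT and 500 ± 135 CPM in vehicle (SD), and Ciita measured 7.85 ± 2.83 and 29.6 ± 5.61 CPM. The members' median was -1.14, and that of the 14656 genes tested was 0.01.

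Ciita differed the most of the 7, by 3.78-fold. By the same rule as for stress, 108 of all genes tested were called lower (0.737%). In all 7 the CORT libraries lay below the vehicle libraries, as they did in 14.4% of all genes tested. Because the genes were selected on the Cd74 level of these libraries, nothing is read from this count. Leaving out CORT 4 raised the log2 fold change of Cd74 to -0.67 and that of H2-Aa to -0.89, and leaving out CORT 2 lowered them to -1.58 and -1.92. Ciita ranged from -2.17 to -1.43 over the 14 alternatives tried.

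In CORT 2, Ciita and the chains did not hold the same place in their ranges. There Ciita was at 10.2 CPM, below every vehicle and Ctrl library, while Cd74 and H2-Ab1, at 370 and 120 CPM, were next to the 375 and 127 CPM of vehicle 3, where Ciita was at 23.1 CPM. The CPM ratio of H2-Ab1 to Ciita was 11.8 in CORT 2, the highest of the 12 libraries, against 5.17 to 6.70 in the vehicle libraries. It was 10.5 in CORT 5 and 6.38 in CORT 4, so that the CORT libraries overlapped the vehicle range and reached beyond it. Other groups reached beyond it too, with 4.76 to 8.37 in Ctrl and 6.57 to 10.3 in stress.

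**Figure D4:**
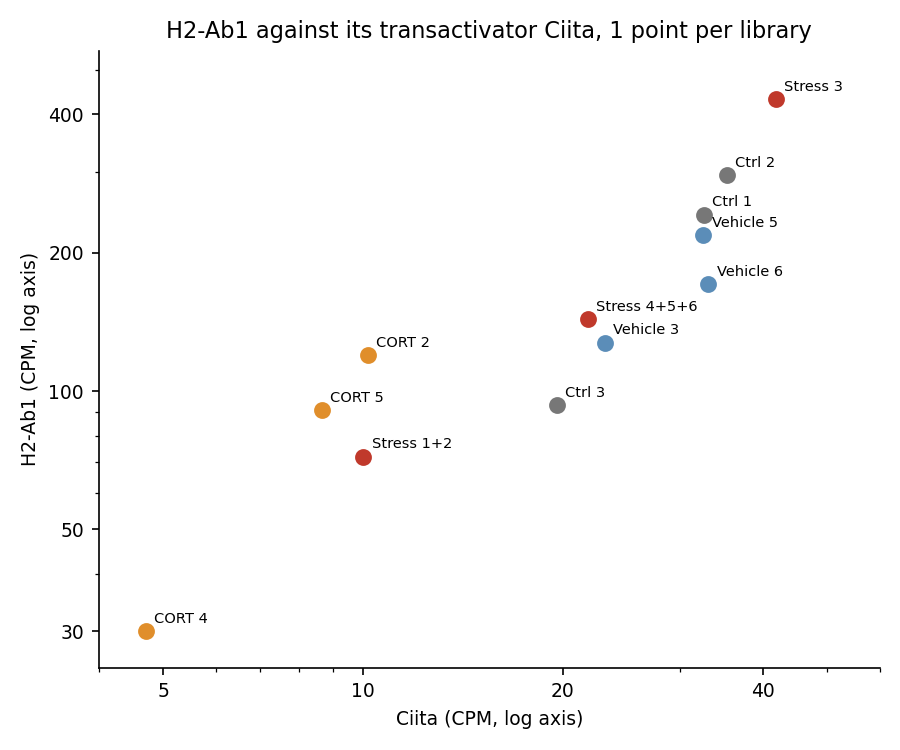
H2-Ab1 against Ciita (CPM, both axes log) with 1 point per library. CORT 2, CORT 5 and stress 1+2 have Ciita at or below 10.2 CPM with H2-Ab1 at 72.0 to 120 CPM, and CORT 4 lies lowest on both axes.

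Several other measures moved with the CORT group. Its libraries were deeper, at 29426183 to 69533214 counts against 16465961 to 31280267 in vehicle. Macrophage markers, almost wholly Cd14, Mertk and Itgam, summed to 29.0 to 33.7 CPM in CORT and 35.7 to 43.3 CPM in vehicle. The list did not fall as a whole. Of its 12 genes 4 were tested, 2 higher and 2 lower, with a median log2 fold change of 0.07. By adjusted p (edgeR), 0 of them passed. Cd14 measured 8.92 to 16.7 CPM in CORT and 16.9 to 25.4 CPM in vehicle. Itgam measured 2.06 to 3.51 CPM in CORT and 1.96 to 2.21 CPM in vehicle. Paneth markers summed to 104 to 116 CPM in CORT and 186 to 211 CPM in vehicle. The part of these in the class II levels was not tested.

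Among the marker lists, 9 genes passed an adjusted p of 0.05 (edgeR) in stress over Ctrl, where 1.89% of all genes tested passed. They were 5 of 6 enterocyte genes tested, 2 of 6 goblet genes, 1 of 6 Paneth genes and 1 of 6 ISC genes. The enterocyte genes Alpi, Apoa1, Apoa4, Fabp1 and Sis rose by 2.66 to 3.60 on the log2 scale, the goblet genes Zg16 and Clca1 by 3.15 and 1.59, and Paneth Mmp7 by 0.87, while Ascl2, a transcription factor of crypt base stem cells, fell by 1.23. In CORT over vehicle, 12 marker genes passed, where 8.13% of all genes tested passed. They were 3 of 6 ISC genes tested, 3 of 6 epithelial, 4 of 6 Paneth, 1 of 6 enterocyte and 1 of 3 tuft cell genes. Of ISC genes, Ascl2 fell by 0.998, Lgr5 by 0.43 and Smoc2 by 0.31. Of epithelial genes, Krt19 fell by 0.44, Krt18 by 0.34 and Vil1 by 0.32. Of Paneth genes, Mmp7 fell by 1.32, Itln1 by 0.68, Defa24 by 0.67 and Defa17 by 0.66. Tuft cell Pou2f3 fell by 1.14 and enterocyte Fabp2 rose by 0.46.

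The difference between the 2 responses was tested over all 12 libraries as an interaction. Of 14415 genes, 56 passed an adjusted p of 0.05 (0.388%). For the members the difference is given without a test. The stress effect exceeded the CORT effect by 1.21 ± 0.81 (log2, SE) for Cd74, 1.53 ± 0.996 for H2-Aa and 1.67 ± 0.58 for Ciita.

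Around the members, 75 genes of the pathway were followed in 6 lists. In stress over Ctrl, 59 were tested and 1 passed an adjusted p of 0.05 (edgeR), against 1.89% of all genes. This was Ifngr1, the ligand-binding chain of the interferon gamma receptor. It measured 122, 119 and 113 CPM in Ctrl 1, 2 and 3 and 167, 150 and 164 CPM in stress 1+2, 3 and 4+5+6. The groups did not overlap, and the log2 fold change was 0.44 ± 0.08 with an adjusted p of 0.0303. The adjusted p ranged from 0.000694 to 0.147 over 14 alternatives and passed in 5 of them. Leaving out any library but stress 3 took it above 0.05, and without stress 3 the count was 3 genes.

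In CORT over vehicle, 61 of the 75 were tested, 5 were lower at an adjusted p under 0.05 and 0 were higher. Of all genes tested, 4.5% were lower and 8.13% passed in either direction, so that the 5 were close to the latter share. The count was 16 without CORT 2, 1 without CORT 4, 3 without CORT 5 and 2 without vehicle 6. Irf8, an interferon regulatory factor best known from myeloid cells and B cells, measured 141, 136 and 158 CPM in vehicle 3, 5 and 6 and 74.5, 67.1 and 84.99 CPM in CORT 2, 4 and 5. It fell by 0.95 ± 0.10 on the log2 scale with an adjusted p of 0.000963, and passed in all 14 alternatives. In stress over Ctrl its log2 fold change was -0.32 ± 0.10, with an adjusted p of 0.156. All 3 stress libraries lay below all 3 Ctrl libraries, as they did in 10.2% of all genes tested.

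Socs3, a feedback inhibitor of cytokine receptors, measured 13.8, 21.8 and 51.2 CPM in vehicle 3, 5 and 6 and 4.14, 7.08 and 9.98 CPM in CORT 2, 4 and 5. It fell by 2.06 ± 0.47 (log2) with an adjusted p of 0.0285, and passed in 9 of 14 alternatives, with an adjusted p of up to 0.118. Nfya, the sequence-specific subunit of the Y box factor NF-Y, fell by 0.32 ± 0.08 (adjusted p 0.0370). Lgmn, an endosomal protease that helps to cut the invariant chain, fell by 0.51 ± 0.11 (adjusted p 0.0224). Btnl1, a butyrophilin-like protein through which epithelium maintains intraepithelial T cells, fell by 0.48 ± 0.12 (adjusted p 0.0402). These 3 passed in 4, 10 and 7 of 14 alternatives.

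By list, 12 of the 14 class II transcription factors were tested, with 0 past the threshold in stress and Nfya and Irf8 in CORT. The RFX subunits, which bind the X box, showed no called difference, with log2 fold changes for Rfx5, Rfxap and Rfxank of 0.07, -0.06 and 0.14 in CORT and 0.14, -0.21 and 0.09 in stress. Irf4 and Spi1, factors of leukocytes, were at 0 in all 12 libraries. Of the interferon gamma route, 10 of 10 genes were tested, with medians of 0.12 in stress and 0.01 in CORT. Of the interferon gamma targets, 21 of 23 were tested in CORT and 0 passed, yet all 21 had values below 0, against 47.9% of all genes tested, with a median of -0.64 against 0.01. The CORT libraries were not alike in these genes. Igtp, an interferon-induced GTPase named after its values were seen, measured 66.5, 28.05 and 53.97 CPM in vehicle 3, 5 and 6 and 59.1, 15.6 and 13.9 CPM in CORT 2, 4 and 5, so that CORT 2 lay within the vehicle range and the other 2 below it. In stress 19 were tested, 0 passed, and the median was 0.15. Antigen processing genes had medians of -0.09 in CORT and 0.04 in stress over 11 tested. Costimulation and checkpoint ligands had medians of 0.00 and -0.11 over 7 tested. Cd86 and Pdcd1lg2 were at 0 counts in all libraries, and Cd80 and Cd40 never passed 0.732 CPM, whereas Lgals9, encoding galectin-9, stood at 514 to 1037 CPM.

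**Figure D5:**
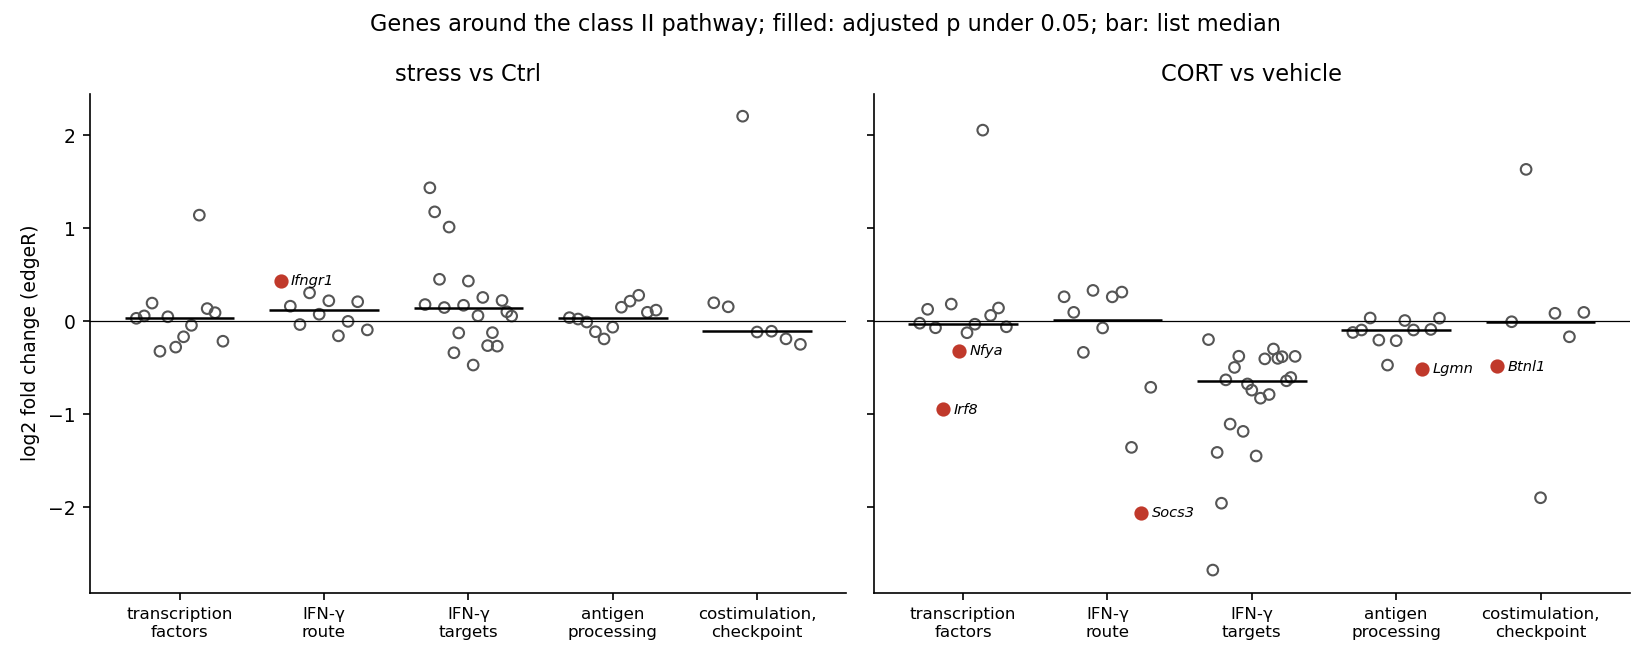
Log2 fold change (edgeR) of each tested gene in 5 lists around the class II pathway, for stress over Ctrl and CORT over vehicle, with filled points at an adjusted p under 0.05 and a bar at the list median. The 21 interferon gamma targets all lie below 0 in CORT over vehicle, with a median of -0.64 and none filled.

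The interferon gamma targets differed in how far they shared the members' order of libraries. Pearson r with the mean log2(CPM + 1) of Cd74, H2-Aa, H2-Ab1 and H2-Eb1 over the 12 libraries ran from -0.12 for Gbp3, a guanylate-binding protein, to 0.755 for Psmb9, a subunit of the immunoproteasome. Gbp3 was highest in vehicle 3 (40.2 CPM) and CORT 2 (27.9 CPM), and measured 2.55 CPM in stress 3, where class II was highest.

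Of all genes with a mean of at least 1 CPM, the one outside the members most like that mean was Irf1, a transcription factor in the route from interferon gamma to Ciita. Its Pearson r was 0.935 and its Spearman rho 0.902 over 12 libraries, and r was 0.893 after each group's mean was taken out. Irf1 spanned far less than the members, from 104 CPM in CORT 4 to 207 CPM in Ctrl 2, and was at 186 CPM in stress 3. Its log2 fold change was -0.03 ± 0.15 in stress and -0.33 ± 0.13 in CORT, with adjusted p of 0.942 and 0.169. The next 9 were Desi1, Vcp, Tmem51, Golt1a, Acot7, BC064078, Pla2g16, Tmem56 and Dcps, with r from 0.928 down to 0.852. Their spans were narrow too, such as 422 to 494 CPM for Vcp, except for BC064078 at 6.01 to 24.2 CPM and Golt1a at 15.1 to 38.8 CPM. They are the top of a ranking over many genes and 12 libraries and are named as a description only.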

How the data were processed

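RNA-seq libraries of sorted ISCs were read as deposited. The authors' methods name HISAT2 and featureCounts on mm10, with 150-bp paired reads, and the submitters' processing notes name HISAT2 2.2.1 and StringTie 2.2.1. The deposited gene table holds estimated counts, rounded here to whole numbers, and 1 count equalled 75.0 covered bases (median over 646 genes with 1 transcript), so that 1 read pair gives up to 4 counts. Totals ran from 15934907 to 69533214 counts, and 0 columns lacked a sample. The authors also deposited FPKM and coverage per gene and library, used for levels between genes and for the check of bases per count. The limit given for a count of 0 covers counting error only.

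Groups came from the labels. Nothing says that libraries share an animal, and p-values measure the spread between libraries. Each comparison was fitted with edgeR 4.0.16 (filterByExpr, TMM, quasi-likelihood test, Benjamini-Hochberg) on its 6 libraries, and the interaction on 12. Calls needed an adjusted p under 0.05 and more than 2-fold. The scripts were tested on simulated data with known changes. Alternatives were DESeq2, DESeq2 size factors, no filter, at least 10 counts in every library, all 12 libraries in 1 fit, limma on log2(FPKM + 1) and log2(FPKM + 0.1) with a mean FPKM of at least 0.5 or no filter, and leaving out each library.

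Members and lists were chosen with earlier results of these data known. Named were all members, list genes with an adjusted p under 0.05, leukocyte markers and the 10 genes most like the members. Some listed genes go unnamed.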

Additional observations from a re-analysis of the deposited data

Results flagged for a closer look

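The markers Fabp1 and Mmp7 differed between the restraint and the corticosterone comparison, by the interaction test of edgeR over 12 libraries. The stress effect on Fabp1, a fatty acid carrier of enterocytes, exceeded the CORT effect by 4.65 ± 0.81 (log2, SE) with an adjusted p of 0.0294. Fabp1 averaged 99.8 CPM in the stress libraries and 9.53 CPM in the Ctrl libraries. The CORT libraries averaged 14.999 CPM and the vehicle libraries 35.9 CPM. In CORT over vehicle alone its log2 fold change was -1.26, with an adjusted p of 0.0643 (edgeR). All 3 CORT libraries lay below all 3 vehicle libraries, as they did in 14.4% of all genes tested. The other enterocyte markers did not fall alike in CORT. Their log2 fold changes were -0.10 for Alpi, -0.18 for Apoa1, 0.01 for Apoa4, -0.07 for Sis and 0.46 for Fabp2. For Mmp7, a protease of Paneth cells, the stress effect exceeded the CORT effect by 2.18 ± 0.21 (log2, SE) with an adjusted p of 0.000688. Its means were 22.1 CPM in Ctrl and 40.2 CPM in stress, and 90.6 CPM in vehicle against 36.6 CPM under CORT. The control groups, Ctrl and vehicle, thus lay further apart than the treated groups. The cause of the difference between the responses was tested for neither gene.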

How the results depend on the processing

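Genes called higher in stress over Ctrl (84) were 145 with DESeq2, 25 with no filter, 33 with log2(FPKM + 1), 34 with log2(FPKM + 0.1) and 13 with log2(FPKM + 1) and no filter, and from 29 (without Ctrl 3) to 248 (without stress 3) with a library left out. Genes called lower (19) were 7, 12 and 5 with no filter, log2(FPKM + 1) and log2(FPKM + 1) with no filter, and 7 to 30 with a library left out. Pathway genes past an adjusted p of 0.05 in stress (1) were 0 with no filter and with each of the 3 FPKM fits, and 0 to 3 with a library left out. In CORT over vehicle, genes called higher (166) were 92 and 64, and genes called lower (108) were 67 and 43, with log2(FPKM + 1) with and without the filter, and genes called higher ranged from 104 to 163 with a library left out. Pathway genes in CORT (5) were 11 with DESeq2, 2 with log2(FPKM + 1) and no filter, and 1 to 16 with a library left out. Interaction genes (56) were 386 with DESeq2, 25, 23 and 17 with the 3 FPKM fits in the order above, and 12 to 241 with a library left out. The cause was not tested, though fits without a filter test more genes. In stress over Ctrl the sign of every member changed under at least 1 alternative. No paired analysis was possible because the groups compared share fewer than 2 replicate numbers. Depth limits H2-DMb2, which had at most 22 counts in a library.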
